A study of Homo sapiens with 24 samples.

Results

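The genes described here are 49 interferon-stimulated genes, chosen by gene symbol from the 19826 named genes that the arrays of this series measured. Their RNA was followed on 24 arrays in 7 human cancer cell lines. PC3, DU145 and LNCap are prostate cancer (PCa) lines, A498 and 786O are renal cell carcinoma lines, and FaDu and SAS are head and neck squamous cell carcinoma lines. Each array held treated RNA labeled with Cy5 and control RNA of the same line labeled with Cy3, and no array had the dyes swapped. On 12 arrays a miRNA was transfected and compared with a control miRNA. These were miR-145 in PC3, DU145 and LNCap, miR-143 in PC3 and DU145, miR-23b and miR-24 in PC3, miR-27b in PC3, 786O and A498, miR-29a in SAS and miR-375 in FaDu. On 6 arrays an siRNA was compared with a control siRNA, namely si-CAV2 in A498 and 786O, si-LAMB3 in FaDu and SAS and si-GOLM1 in PC3 and DU145. On 4 arrays a plant flavonoid was tested, genistein in PC3 and DU145 and wogonin in SAS and FaDu. The chemokine CXCL10 was added to 786O cells for 12 h and for 24 h on the remaining 2 arrays.

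Both channels of a transfection array held cells that had received Lipofectamine RNAiMAX and an RNA. The wogonin control received DMSO and the CXCL10 control no treatment. The genistein control is labeled as not treated, while the study's methods name the vehicle dimethylsulfoxide and give 25 µM of genistein for 4 days. Doses and times of the other agents are not given in the sources used here, apart from the times of CXCL10. The arrays of miR-23b, miR-24 and miR-27b in PC3 share 1 control extract, so their ratios are not independent. All samples were cultures of established lines, each agent was tested once in a line, except CXCL10 with its 2 times in 786O. The p-values below therefore measure the spread between arrays of different lines, agents or times and not between cultures.

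Interferons are secreted when a cell senses foreign nucleic acid, for example through the RNA sensors RIG-I (symbol DDX58) and MDA5 (IFIH1). Interferon beta and the lambda interferons then bind receptors on the same or neighboring cells, and the kinases JAK1 and TYK2 activate a complex that holds STAT2 and IRF9. This complex binds promoters that hold repeats of GAAA and induces many genes, whose products block viral entry, translation, replication and budding. Many epithelial cancer lines respond to interferon, and lines keep different basal levels of these genes.

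The small RNAs themselves carry the sequences that differ between the transfections. The RefSeq mature sequences (GRCh38.p14) of the 4 miRNAs whose arrays are contrasted below are given 5′ to 3′, with the seed, bases 2 to 8, in capitals. The labels do not name the arm that was transfected, so both arms are shown. No pair of them shared a seed, and the genes of miR-143 and miR-145 lie next to each other on the forward strand of chromosome 5.
hsa-miR-145-5p (chr5:149430661-149430683): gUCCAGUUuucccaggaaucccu
hsa-miR-145-3p (chr5:149430699-149430720): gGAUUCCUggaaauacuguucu
hsa-miR-143-5p (chr5:149428944-149428965): gGUGCAGUgcugcaucucuggu
hsa-miR-143-3p (chr5:149428978-149428998): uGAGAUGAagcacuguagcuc
hsa-miR-375-5p (chr2:219001682-219001704, reverse strand): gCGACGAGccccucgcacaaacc
hsa-miR-375-3p (chr2:219001648-219001669, reverse strand): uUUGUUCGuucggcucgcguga
hsa-miR-29a-5p (chr7:130876786-130876807, reverse strand): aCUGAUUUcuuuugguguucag
hsa-miR-29a-3p (chr7:130876748-130876769, reverse strand): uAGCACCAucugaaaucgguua

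The promoters of the members were searched for the core letters that the STAT and IRF complex reads, GAAA, any 2 bases and GAAA again, or the reverse complement with TTTC, with overlapping matches counted. RefSeq promoter windows of 300 bases, from 250 before to 50 after the gene's start, were found for 41 of the 49 members. Of these, 29 (70.7%) held the letters, against 1195 of 27305 genes (4.38%) and 1255 of 35116 windows (3.57%). Since the members were selected as interferon targets, this share is a description of the list. A match is no proof of binding, and a window without one says only that these letters were not found there. Stretches of 60 bases around a match follow for 8 members whose values are described below, on the strand of the gene and with the matched letters in capitals.
IFIH1, an RNA sensor (chr2:162318671-162318730, reverse strand): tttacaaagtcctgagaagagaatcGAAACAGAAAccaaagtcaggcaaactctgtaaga
IFIT1, an inhibitor of viral translation (chr10:89392495-89392554, forward strand): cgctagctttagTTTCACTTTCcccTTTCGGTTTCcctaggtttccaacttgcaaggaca
RSAD2, viperin (chr2:6877607-6877666, forward strand): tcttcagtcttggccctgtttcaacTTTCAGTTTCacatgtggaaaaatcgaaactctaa
RTP4, a receptor transporter (chr3:187368342-187368401, forward strand): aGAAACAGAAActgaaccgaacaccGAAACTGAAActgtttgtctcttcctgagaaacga
BST2, tetherin (chr19:17405720-17405779, reverse strand): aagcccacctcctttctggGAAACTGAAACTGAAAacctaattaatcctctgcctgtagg
ISG15, a ubiquitin-like modifier (chr1:1013365-1013424, forward strand): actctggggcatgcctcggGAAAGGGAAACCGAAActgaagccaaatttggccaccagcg
HERC5, the ligase that attaches ISG15 (chr4:88457020-88457079, forward strand): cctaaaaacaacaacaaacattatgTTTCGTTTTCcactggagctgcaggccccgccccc
IFI6, a mitochondrial and membrane protein (chr1:27672251-27672310, reverse strand): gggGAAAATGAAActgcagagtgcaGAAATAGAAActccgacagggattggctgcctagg

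All values below are log2 ratios of treated over control unless called a level. A gene was measured on an array where its brightest probe was well above background in at least 1 channel, which held for 34 members on all 24 arrays. Without replicates of an agent in a line, a member was counted as higher or lower by size alone, past a log2 ratio of 1.0 (a change of 2-fold). The error that the scanner software gives for a member's log2 ratio was between 0.2 and 0.92, with a median of 0.21, and covers the measurement of 1 array only. A second count rests on a limma fit of all values, those near background included. In it the lines that received the same agent (for CXCL10, the 2 times in 1 line) are the replicates. The words "rose" and "fell" are used for that test at an adjusted p below 0.05 over 35649 probes. The spread of a probe was pooled over all agents with several arrays. Its SE is therefore the same for every agent with 2 arrays and is not the spread of that agent's own lines. Shares of all probes that passed refer to the adjusted p, and none is given at an unadjusted p. No marker list went against the labels of the lines. The prostate genes KLK3, KLK2 and TMPRSS2 had their highest mean control level in LNCap, and were near background or far lower in PC3 and DU145. The squamous genes KRT5, KRT14, TP63 and DSG3 were highest in FaDu and SAS, and the renal genes PAX8, PAX2 and CDH6 in A498 and 786O, while SFN and CA9 of these lists did not separate the lines. Of the leukocyte genes, CD3E was above background in 1 of the 24 control channels, whereas PTPRC lay between 4.06 and 5.63 in all of them. The siRNA targets were at -3.80 and -3.20 for CAV2, at -4.15 and -3.02 for GOLM1, and at -2.50 in FaDu and -0.89 in SAS for LAMB3.

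**Figure D1:**
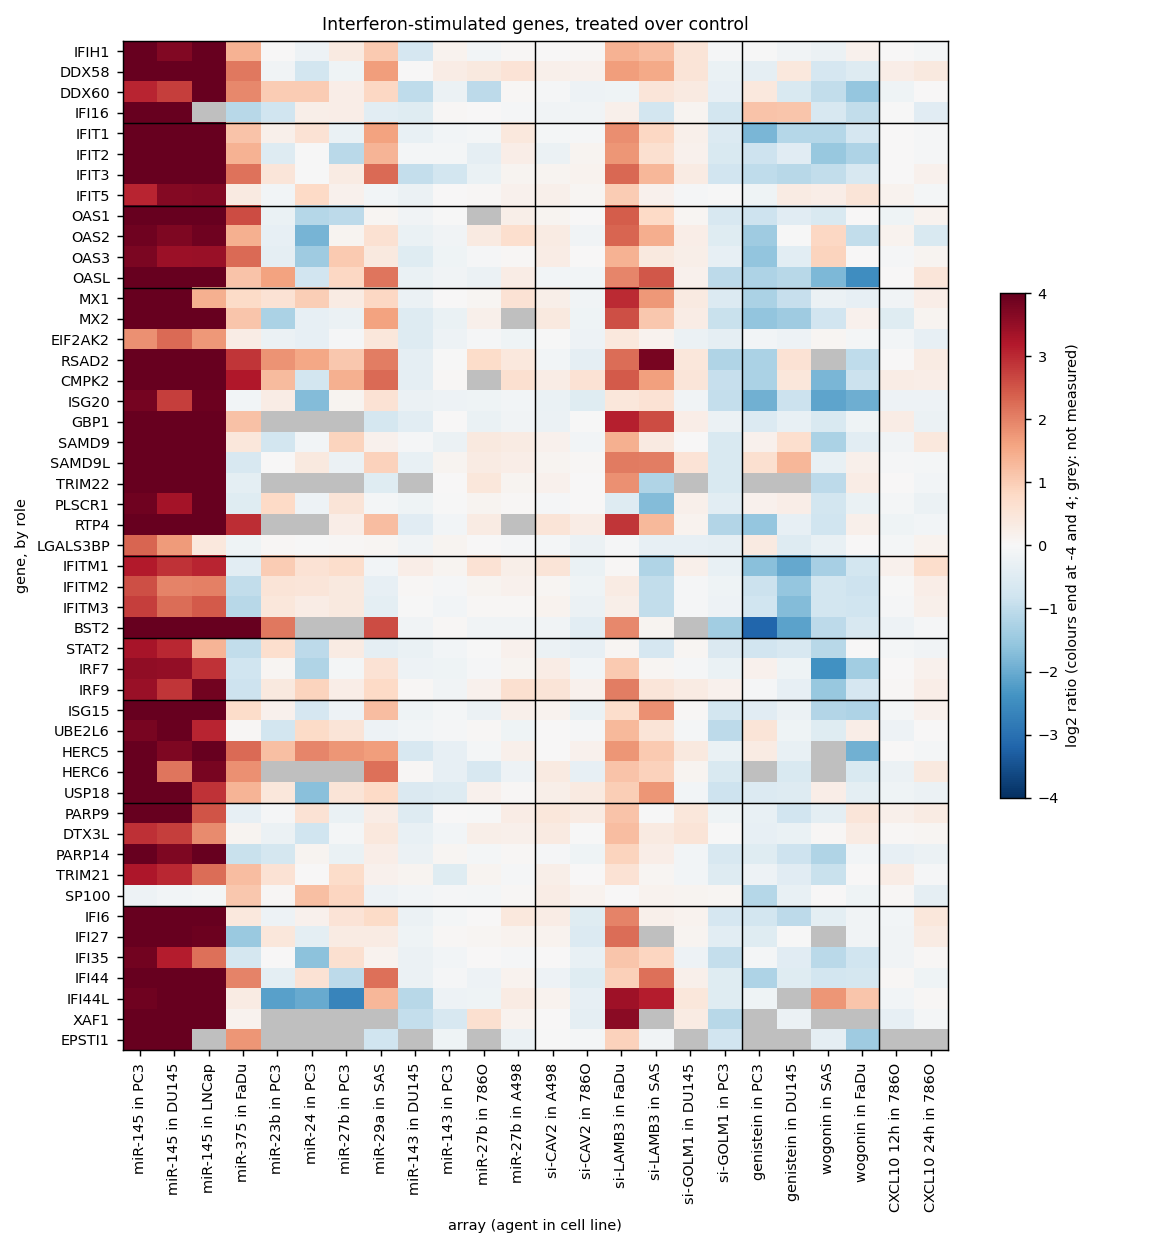
Log2 ratio of treated over control for the 49 members (rows, by role) on the 24 arrays (columns, by class of agent: miRNA, siRNA, compound, CXCL10), with colours ending at -4 and 4 and grey where a member was not measured. The 3 miR-145 columns are red in nearly every row, the 2 si-LAMB3, the miR-375 and the miR-29a columns are red in part, and the 4 compound columns are mostly blue.

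MiR-145 was followed by the largest values of the series. In PC3, 48 of 49 measured members were higher and 0 lower, with a median of 4.18 and values from -0.20 to 8.87 (ratios over a control at background included, here and in the other counts), against 8.45% of all measured genes higher and 5.77% lower. In DU145, 48 of 49 were higher and 0 lower, with a median of 4.06, against 3.55% and 1.43% of all genes. In LNCap, 45 of 47 were higher and 0 lower, with a median of 4.42, against 7.64% and 1.45%. The median over all genes was -0.05, -0.02 and -0.10 on these arrays. Of the markers of other cell types, the keratin KRT14 was at least 44.16-fold higher in PC3 and stood at 2.43 in DU145 and 3.03 in LNCap, and SFN was at 0.65, 0.14 and 3.66 with miR-145, whereas KRT5 and TP63 were not above background in either channel, and the part of such cells in the result was not tested. In the limma fit over the 3 lines, 48 of 49 members rose and 0 fell, where 3.76% of all probes rose. Whether fewer responding cells or less RNA in each cell lies behind a ratio cannot be told apart in such bulk RNA, here or below.

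**Figure D2:**
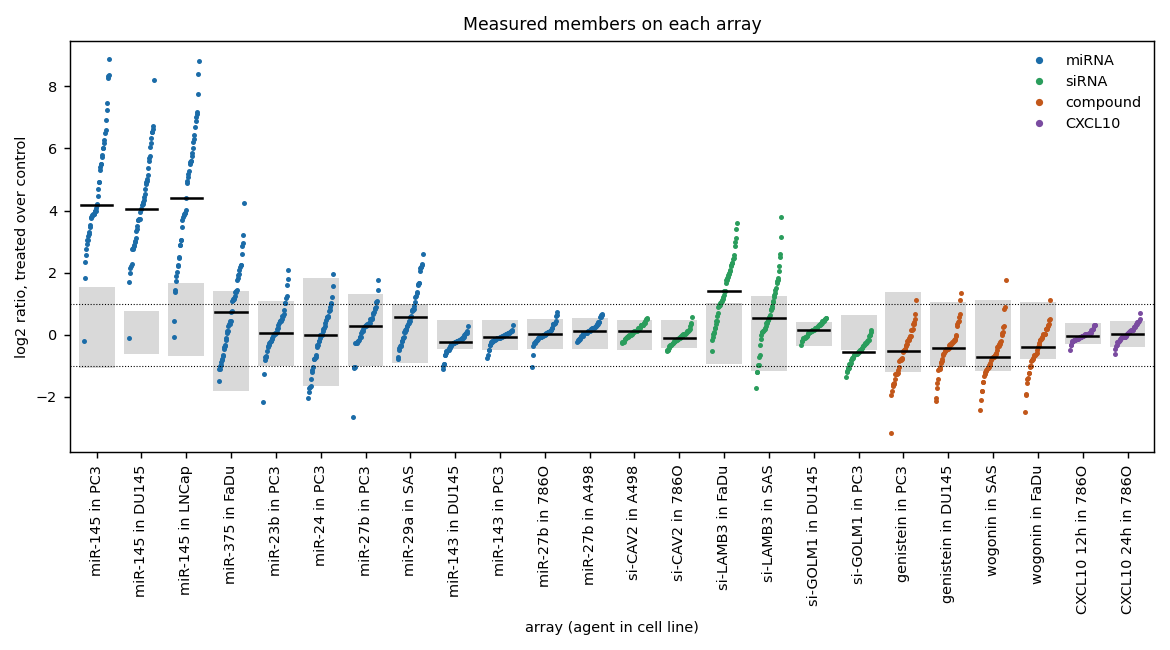
Log2 ratio of every measured member (points, sorted within an array and coloured by class of agent) on the 24 arrays, with the member median as a black bar, the 5th to 95th percentile of all measured genes as a grey box and the limits of -1.0 and 1.0 as dotted lines. The member medians stand at 4.18, 4.06 and 4.42 for miR-145, at 1.4 for si-LAMB3 in FaDu and at -0.72 for wogonin in SAS, while the CXCL10 points stay between -0.62 and 0.69.

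Among the RNA sensors, DDX58 (RIG-I) had ratios of 6 in PC3, 4.29 in DU145 and 7.03 in LNCap and rose by 5.77 ± 0.36 (SE, n = 3 lines, limma adjusted p = 7.88e-07). IFIH1 (MDA5) stood at 5.73, 3.71 and 5.56, and DDX60, a helicase that aids RIG-I, at 3.05, 2.78 and 5.08. The DNA sensor IFI16 was at 4.22 and 4.96 in PC3 and DU145 and was not measured in LNCap, where both channels lay at background. The IFIT proteins bind viral RNA that lacks the host cap. IFIT2 had the highest value in LNCap among members above background in both channels, 8.82, beside 7.45 in PC3 and 5.59 in DU145. IFIT1 stood at 5.40, 4.69 and 5.77 and IFIT3 at 6.26, 5.02 and 6.87. IFIT5 was lower among them, at 3.04, 3.68 and 3.69.

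The scanner signals behind these ratios were large. IFIT1 went from 5247.5 units in the PC3 control to 222273.1 with miR-145, from 2882.2 to 74595.0 in DU145 and from 4866.7 to 265682.2 in LNCap. ISG15, the ubiquitin-like protein that is joined to newly made proteins, went from 13606.4 to 409195.2, from 10199.4 to 184210.1 and from 9314.4 to 448407.5. These signals had no saturated spot. Its log2 ratios were 4.91, 4.17 and 5.59, a rise of 4.89 ± 0.25 (SE, n = 3 lines, limma adjusted p = 2.32e-07). Treated and control signals of both genes did not overlap between the 3 lines.

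The OAS enzymes make the second messenger that switches on RNase L. OAS1 stood at 4.00, 4.22 and 4.42 in PC3, DU145 and LNCap, and OASL, a family member without that activity, at 6.17, 4.91 and 6.68. OAS2 and OAS3 lay between 3.41 and 3.89 in all 3 lines. The GTPase MX1, which traps viral nucleocapsids, was at 4.93 in PC3 and 4.52 in DU145 but at 1.43 in LNCap, and its relative MX2 was at 6.50, 6.17 and 4.03. Among the other effectors, CMPK2, a mitochondrial nucleotide kinase beside RSAD2 in the genome, stood at 8.32, 8.20 and 6.21. RSAD2, which makes a chain-terminating nucleotide, stood at 7.24, 6.52 and 7.12. EIF2AK2 (PKR), the kinase that stops translation, was at 1.84, 2.27 and 1.72, near the low end of the list.

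Several of the largest ratios rest on a control channel at background and are lower bounds. GBP1, an interferon-induced GTPase, was at least 330.01-fold higher in PC3 and at least 268.63-fold in LNCap, and its measured ratio in DU145 was 5.77. TRIM22, a ubiquitin ligase, was at least 268.13-fold higher in PC3, at least 38.75-fold in DU145 and at least 35.91-fold in LNCap. RTP4 was at least 307.89-fold higher in PC3, beside ratios of 6.33 in DU145 and 7.75 in LNCap. XAF1, an antagonist of the apoptosis inhibitor XIAP, was at least 120.12-fold higher in PC3 and at least 78.3-fold in LNCap. SAMD9L was at least 98.03-fold higher in DU145 and at least 64.48-fold in LNCap, and stood at 6.61 in PC3. SAMD9 was at least 35.17-fold higher in DU145 and at least 44.26-fold in LNCap, with 5.51 in PC3. IFI44L was at least 58.13-fold higher in LNCap, beside 3.88 in PC3 and 6.71 in DU145, and EPSTI1 at least 8.66-fold in PC3 and 31.85-fold in DU145. In each case the treated channel was well above background and the control channel was not. Ratios over a dim control were smaller with normexp background correction, as for GBP1 in LNCap at 4.71, IFI44L in DU145 at 4.13 and PLSCR1 in LNCap at 2.56, and remained above the limit.

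**Figure D3:**
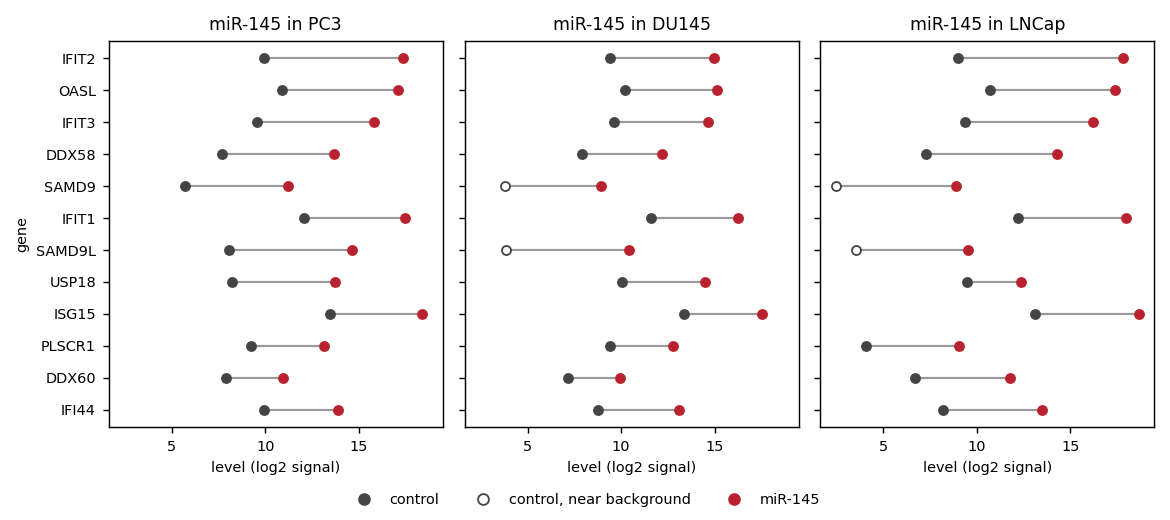
Level (log2 of the processed signal after quantile normalisation) of the 12 members with the widest range over the 24 arrays, in the control channel (dark, open where near background) and with miR-145 (red, the control level plus the log2 ratio), with 1 panel for each line. Every red point lies to the right of its dark point, as for ISG15 at 13.45 and 18.36 in PC3.

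The membrane proteins that limit viral entry and release were also higher. IFITM1 stood at 3.17, 2.88 and 3.06, while IFITM2 and IFITM3 lay between 1.99 and 2.76. BST2 (tetherin), which holds budding virions at the surface, stood at 5.80, 5.70 and 5.50. The probes of IFITM2 and IFITM3 read near-identical genes and their values are not separate evidence. The transcription factors of the response were at 3.30, 3 and 1.36 for STAT2, at 3.55, 3.51 and 2.90 for IRF7 and at 3.46, 2.86 and 3.87 for IRF9. HERC5 stood at 6.02, 3.74 and 7.18 and the deconjugating protease USP18 at 5.51, 4.43 and 2.90. PARP9, a partner of the ligase DTX3L, was at 3.97, 4.05 and 2.51. IFI6 stood at 5.32, 4.84 and 4.90, PLSCR1 at 3.89, 3.34 and 4.96, and IFI44 at 3.97, 4.35 and 5.29.

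SP100, a protein of nuclear bodies, was the member that did not rise. Its brightest probe read -0.20, -0.11 and -0.09 and gave -0.13 ± 0.17 (SE, n = 3 lines, limma adjusted p = 0.768). The other probes of SP100 gave another picture. One read 2.22, 1.57 and 0.72 and the other 2.86, 2.29 and 2.86 on the same arrays, so the value of this gene depends on the probe. The secreted glycoprotein LGALS3BP, which stood at 2.34 in PC3 and 1.70 in DU145, had 0.43 in LNCap. Over the list there were 267 pairs of a member and an array with several measured probes, and 0 of them had probes called in opposite directions.

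The pathway above and beside the members was described with lists of its other genes. Of the 7 interferon ligands on the arrays, 5 were measured in each miR-145 line, and 4, 4 and 5 were higher in PC3, DU145 and LNCap. IFNB1, interferon beta, had ratios of 8.09 in PC3 and 7.68 in LNCap and was at least 96.89-fold higher in DU145. Its signal went from 75.6 to 20537.8 units in PC3, from 6.0 to 637.3 in DU145 and from 75.2 to 15458.7 in LNCap. The lambda interferons IL29, IL28A and IL28B stood between 3.34 and 5.20 in the 3 lines. IFNE, interferon epsilon, was at 0.27 in PC3 and -0.12 in DU145 and at least 5.66-fold higher in LNCap. IFNG and IFNK were not measured on these arrays. Of the 21 other arrays, IFNB1 was measured on 6, with no signal above 22.9 units, the treated channel of genistein in DU145.

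Of 9 receptors and kinases, 1 was higher on each miR-145 array, and this was JAK2 at 3.33, 1.72 and 3. JAK1 was not above background in the LNCap control, at 11.8 units, and read 22.4 units with miR-145. Its control level was 3.41 there, against 7.72 in PC3 and 6.99 in DU145. Whether LNCap cells could respond to interferon was not tested. IFNAR1, a chain of the receptor for interferon beta, was at -0.98, -0.78 and -0.42 with miR-145, below the limit for a call. It was at -2.28 with miR-24 and -2.03 with miR-27b in PC3, on arrays that share the control extract. With miR-27b it was at -0.8 in 786O and -0.63 in A498, not past the limit. In the limma fit over the 3 miR-27b lines it fell by 1.15 ± 0.22 on the log2 scale (SE, adjusted p = 0.0258). IRF1 stood at 2.54, 1.85 and 4.02 with miR-145. Of the sensors and adaptors, TLR3, an endosomal receptor of double-stranded RNA, was at least 110.36-fold higher in PC3 and stood at 4.72 in DU145 and 2.99 in LNCap. MAVS, the adaptor of RIG-I, was at -0.02, 0.24 and 0.12.

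Genes that respond more to interferon gamma were higher as well. All 10 of them in PC3, 9 of 9 measured in DU145 and 10 of 10 in LNCap were past the limit. CXCL11, a chemokine, stood at 7.93 in PC3 and 7.54 in LNCap and was at least 55.9-fold higher in DU145. CXCL9 was at least 46.06-fold higher in PC3 and at least 81.01-fold in LNCap and was not measured in DU145. CXCL10 stood at 4.69 and 4.94 in PC3 and LNCap and was at least 12.93-fold higher in DU145. The immunoproteasome subunits PSMB8 and PSMB9 and the peptide transporter TAP1 lay between 2.38 and 4.20. Of 4 negative regulators, 1 was higher in each line, SOCS1 at 1.86, 1.90 and 3.74, while PIAS1 and PTPN2 lay between -0.47 and 0.17.

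**Figure D4:**
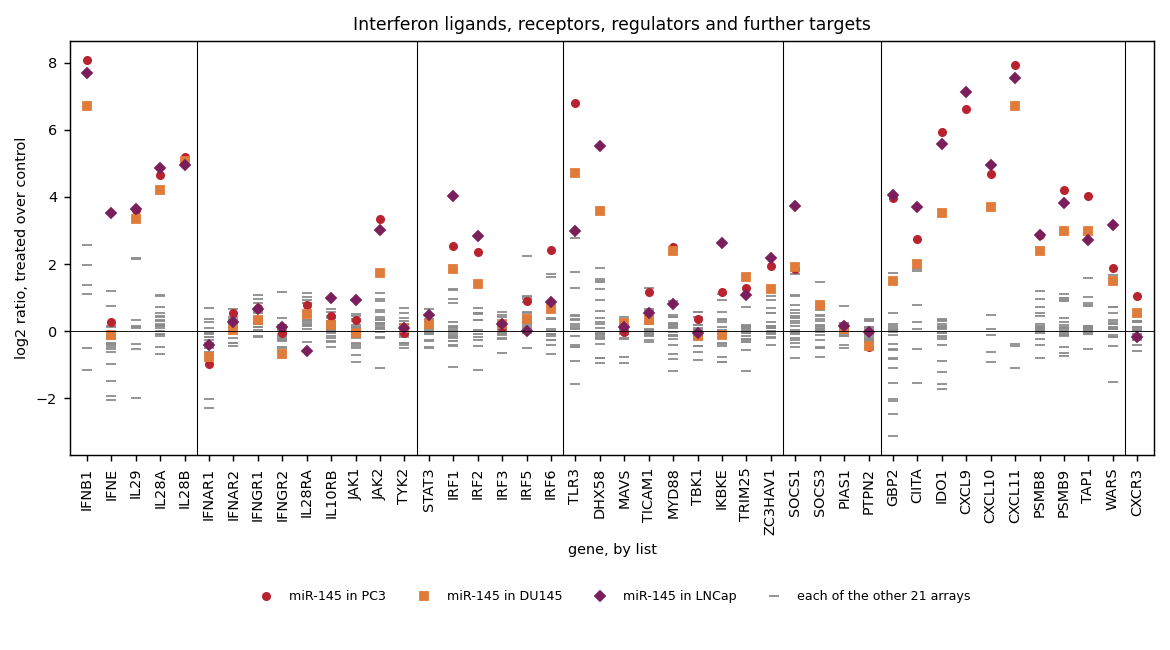
Log2 ratio of interferon ligands, receptors and kinases, transcription factors, sensors and adaptors, negative regulators, interferon gamma targets and the CXCL10 receptor, for miR-145 in 3 lines (coloured) and each of the other 21 arrays where the gene was measured (grey dashes). IFNB1 stands at 8.09 in PC3 and 7.68 in LNCap with miR-145, its DU145 point rests on a control at background (at least 96.89-fold), and IFNAR1 lies between -0.98 and -0.42.

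MiR-143, whose gene neighbors that of miR-145, gave small values in the PCa lines. In PC3, 0 members were higher and 0 lower of 49 measured, with values from -0.74 to 0.30, against 0.927% and 0.955% of all genes. In DU145, 0 of 47 were higher and 2 lower, with a median of -0.25, against 1.35% and 1.04%. These were DDX60 at -1.01 and IFI44L at -1.11, whose treated signal of 10.8 was not well above background. In the limma fit over both lines 0 members passed, 2 had an unadjusted p below 0.05, and 0.216% of all probes passed. IFIT1 stood at -0.29 in DU145 and -0.11 in PC3, and ISG15 at -0.17 and -0.09. The miR-143 arrays were on slide 3, of another probe design than slide 1 with the miR-145 arrays. Their controls had a median member level of 10.69 in PC3 and 9.31 in DU145, against 9.33 and 8.74 in the miR-145 controls. The part of these differences in the ratios was not tested.

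The miRNAs of the 23b, 27b and 24 cluster gave mixed values in PC3. With miR-23b, 7 of 43 measured members were higher and 2 lower, against 6.04% and 4.99% of all genes, and with miR-27b 4 and 4 of 43, against 8.4% and 5.2%. With miR-24, 4 of 42 were higher and 9 lower, against 15.4% and 12.8%, on the array with the most genes past the limit. The lower members with miR-24 included OAS1 at -1.14, OAS2 at -1.86, OAS3 at -1.43, STAT2 at -1.05 and IRF7 at -1.19. IFI44L was lower with each of the 3 miRNAs, at -2.18 with miR-23b, -2.03 with miR-24 and -2.65 with miR-27b. HERC5 was higher with each, at least 2.29-fold with miR-23b, 3.83-fold with miR-24 and 3.36-fold with miR-27b. These arrays share the control extract, and shared directions cannot be told apart from a deviation of that control. MiR-27b in the renal lines gave 0 higher and 1 lower of 46 in 786O (1.34% and 1.36% of all genes) and 0 and 0 of 47 in A498 (1.24% and 1.3%). The 1 was DDX60 at -1.04. Over the 3 miR-27b lines 0 members passed limma and 1 had an unadjusted p below 0.05, where 1.24% of all probes passed.

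Small RNAs in the squamous lines gave smaller but frequent high values. With miR-375 in FaDu, 23 of 49 members were higher and 4 lower, with a median of 0.73, against 10.6% and 13.3% of all genes. With normexp background correction 14 were higher (share of all genes not given). Of the squamous genes, KRT14 stood at -2.36, DSG3 at -2.22, KRT5 at -1.32, TP63 at -0.25 and SFN at 1.27 on this array, and their part in the result was not tested. BST2 stood at 4.23, CMPK2 at 3.21 and RTP4 at 2.96, and OAS1 was at least 6.08-fold higher. IFIT1 was at 1.14, IFIH1 at 1.4 and DDX58 at 2.10. The lower members were IFI16 at -1.11, IFITM3 at -1.11, IFI27 at -1.48 and STAT2 at -1. STAT2, IRF7 and IRF9 were all below 0 there, at -1, -0.80 and -0.83.

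MiR-29a in SAS gave 16 of 48 members higher and 0 lower, with a median of 0.57, against 4.97% and 3.96%. The count was 9 with normexp and 9 without background correction (shares of all genes not given). DSG3 stood at -2.33, SFN at -1.13 and KRT5 and KRT14 at -0.51 and -0.11, and the part of such a shift was not tested. BST2 was at least 3.22-fold higher, IFIT3 stood at 2.28 and CMPK2 at 2.26. HERC6 was at least 4.55-fold higher, IFI44 stood at 2.19 and OASL at 2.14. ISG15 went from 3125.3 to 7310.4 units, a ratio of 1.23, and IFIT1 from 1667.0 to 5060.7, a ratio of 1.60. The membrane proteins other than BST2 differed from it, with IFITM1, IFITM2 and IFITM3 at -0.11, -0.32 and -0.38.

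The siRNA against LAMB3, a laminin chain, was the siRNA experiment with high members. LAMB3 itself stood at -2.5 in FaDu and at -0.89 in SAS, short of the limit. It did not pass in the limma fit over both lines (-1.69 ± 0.75, SE, adjusted p = 0.167). In FaDu 32 of 49 members were higher and 0 lower, with a median of 1.4, against 5.11% and 4.28% of all genes. XAF1 stood at 3.60, IFI44L at 3.40, GBP1 at 3.12 and MX1 at 2.99. In SAS 17 of 47 were higher and 3 lower, with a median of 0.53, against 7.37% and 6.92%. In SAS the higher count was 7 with normexp and 9 without background correction (shares of all genes not given). The squamous genes lay between -0.05 and 0.47 in FaDu and between -1.45 and -0.48 in SAS, and their part was not tested. RSAD2 was at least 6.82-fold higher there, IFI44L at least 3.75-fold, and GBP1 stood at 2.61. Of the members higher in FaDu, 14 were higher in SAS too, which is 43.8% of the FaDu and 82.4% of the SAS members. Over all genes these shares were 31.3% and 21.7%. IFIT1 went from 2193.3 to 7956.2 units in FaDu and from 998.8 to 1764.1 in SAS.

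In the limma fit over both lines, 19 members rose and 1 fell with si-LAMB3, where 4.87% of all probes rose and 6.96% fell. SAMD9L rose by 2.08 ± 0.26 (SE, n = 2 lines, adjusted p = 0.000401), OASL by 2.21 ± 0.38 (adjusted p = 0.00307) and GBP1 by 2.87 ± 0.47 (adjusted p = 0.00237). The sensors DDX58 and IFIH1 rose by 1.59 ± 0.44 and 1.31 ± 0.36 (adjusted p = 0.0354 and 0.035). The 1 member that fell was PLSCR1, a scramblase, at -0.52 in FaDu and -1.73 in SAS (-1.12 ± 0.33, adjusted p = 0.042). With normexp background correction 12 members rose (share of all probes not given). A fit with 1 line left out rests on 1 array of si-LAMB3. Its counts are listed only with the processing alternatives below, and the lines are compared here by size. By size 32 of 49 members were higher and 0 lower in FaDu, and 17 of 47 were higher and 3 lower in SAS. The membrane proteins IFITM1, IFITM2 and IFITM3 stood at 0.06, 0.33 and 0.23 in FaDu and at -1.2, -0.98 and -0.98 in SAS. TRIM22 stood at 1.82 in FaDu and at -1.19 in SAS.

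Lists of members overlapped between different small RNAs in 1 line. In FaDu, 17 members were higher both with si-LAMB3 and with miR-375, which is 53.1% and 73.9% of the lists, against 12.9% and 6.17% of the lists of all genes. In SAS, 12 were higher both with si-LAMB3 and with miR-29a, which is 70.6% and 75%, against 23.3% and 34.6% over all genes. DDX58, IFIH1, IFIT3, OASL, MX2, RSAD2, CMPK2, RTP4 and HERC5 were in both overlaps. The arrays of each pair had different control extracts. In FaDu 32 of 49 members were higher with si-LAMB3 and 23 of 49 with miR-375, and in SAS 17 of 47 and 16 of 48. Lists that hold so much of the set share members by their length alone, and the shares of all genes do not allow for this. Whether the overlaps exceed that was not tested. Shares between the lines of si-LAMB3, genistein and wogonin have the same limit.

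The other siRNAs gave few calls. With si-CAV2, 0 of 49 members were higher and 0 lower in A498 (0.905% and 1.14% of all genes) and in 786O (0.972% and 0.95%), and members lay between -0.54 and 0.58. With si-GOLM1 in DU145, 0 of 46 were higher and 0 lower, against 0.371% and 0.706%, with a median of 0.16. With si-GOLM1 in PC3, 0 of 49 were higher and 6 lower, with a median of -0.56, against 1.47% and 1.06%. BST2 was at -1.38, RSAD2 at -1.2, RTP4 at -1.17, XAF1 at -1.12, and OASL and UBE2L6 at -1.06. In the limma fits 0 members passed with si-CAV2 (0.222% of all probes) and 0 with si-GOLM1 (0.309%), and 0 and 1 had an unadjusted p below 0.05.

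Genistein gave more low than high members in both PCa lines. In PC3, 1 of 45 measured members was higher and 15 lower, with a median of -0.54, against 9.4% and 6.86% of all genes. In DU145, 2 of 46 were higher and 9 lower, with a median of -0.44, against 5.65% and 5.7%. The members lower in both lines were IFIT1, IFIT3, OASL, MX2, IFITM1 and BST2, which is 40.0% of the PC3 and 66.7% of the DU145 list, against 15.5% and 17.8% over all genes. Of the markers of other cell types, KRT14 was at least 5.51-fold higher in PC3 and stood at 0.92 in DU145, and SFN stood at -0.76 and -0.36, while KRT5, TP63 and DSG3 were not above background. The prostate gene TMPRSS2 stood at -1.44 in PC3 and 0.86 in DU145, and the part of these shifts in the result was not tested. BST2 had the lowest value of any member in the series, -3.18 in PC3, where its signal went from 387.7 to 42.8 units, and stood at -2.15 in DU145. IFIT1 went from 3231.7 to 910.0 units in PC3 and from 5516.8 to 2490.4 in DU145. IFI16 was the member higher in both lines, at 1.13 and 1.11, and SAMD9L was higher in DU145 at 1.34.

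In the limma fit over both lines, 7 members fell and 1 rose with genistein, where 5% of all probes fell and 5.79% rose. BST2 fell by 2.66 ± 0.40 on the log2 scale (SE, n = 2 lines, adjusted p = 0.00183), IFITM1 by 1.86 ± 0.28 (adjusted p = 0.00168), IFIT1 by 1.49 ± 0.29 (adjusted p = 0.00711) and the exonuclease ISG20 by 1.4 ± 0.28 (adjusted p = 0.00726). IFITM2, IFITM3 and SP100 fell by 1.2, 1.26 and 0.72, though the other probes of SP100 read between -0.56 and 0.12 with genistein. All 4 membrane proteins were among those that fell. SAMD9L was the 1 that rose, by 1 ± 0.26 (adjusted p = 0.0259), and it no longer passed with normexp background correction. STAT2, IRF7 and IRF9 lay between -0.78 and 0.16 and did not pass. A fit without 1 of the lines rests on 1 array of genistein, and its counts are listed only with the processing alternatives below.

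Wogonin, a flavone of skullcap root, also gave more low than high members. In SAS, 1 of 44 was higher and 15 lower, with a median of -0.72, against 6.39% and 6.55% of all genes. In FaDu, 1 of 48 was higher and 10 lower, with a median of -0.40, against 5.5% and 3.02%. IFIT2, OASL, ISG20, IRF7 and ISG15 were lower in both lines, which is 33.3% of the SAS and 50% of the FaDu list, against 14.5% and 31.2% over all genes. In SAS 8 were lower with normexp and 9 without background correction (shares of all genes not given). The squamous genes KRT5, KRT14, TP63, DSG3 and SFN lay between -0.88 and 0.62 in SAS and between -0.50 and 1.07 in FaDu, and their part was not tested. IRF7 stood at -2.42 in SAS and -1.4 in FaDu, and ISG15 went from 1472.6 to 647.8 units and from 14237.1 to 5991.8. CMPK2 was at least 3.54-fold lower in SAS, and HERC5 stood at -1.91 in FaDu. IFI44L was the member above the limit in both lines, at 1.75 and 1.11, but in SAS its control channel lay at background and the bound was at least 1.01-fold.

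In the limma fit 0 members rose and 5 fell with wogonin, where 2.75% of all probes fell. ISG20 fell by 2.04 ± 0.28 (SE, n = 2 lines, adjusted p = 0.00211), IRF7 by 1.91 ± 0.25 (adjusted p = 0.00174) and OASL by 2.14 ± 0.38 (adjusted p = 0.00687). ISG15 and IFITM1 fell by 1.22 ± 0.30 and 1.04 ± 0.28 (adjusted p = 0.035 and 0.0435). ISG20 and IFITM1 passed with both flavonoids. BST2, which fell with genistein, stood at -1.05 in SAS and -0.64 in FaDu. A fit without SAS or without FaDu rests on 1 array of wogonin, and its counts are listed only with the processing alternatives below. Doses and lines of genistein and wogonin differed or are not known, so their values were not compared with a test.

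CXCL10, a chemokine that interferon induces, was itself followed by no member past the limit in 786O. At 12 h 0 of 48 members were higher and 0 lower, with values from -0.50 to 0.31, against 0.807% and 0.94% of all genes. At 24 h 0 of 48 were higher and 0 lower, with values from -0.62 to 0.69, against 0.804% and 1.01%. IFITM1 was the highest at 24 h, at 0.69, and stood at 0.17 at 12 h. CXCR3, the receptor of CXCL10, stood at 0.04 and 0.26. In limma over both times 0 members passed and 0 had an unadjusted p below 0.05, where 0.224% of all probes passed.

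Summed over classes, 195 member values were higher and 22 lower of 559 on miRNA arrays, 49 and 9 of 289 on siRNA arrays, 5 and 49 of 183 on compound arrays, and 0 and 0 of 96 on CXCL10 arrays. Over all measured genes the shares higher and lower were 5.81% and 4.46%, 2.7% and 2.51%, 6.73% and 5.54%, and 0.806% and 0.973%, in that order. The classes were compared in a limma fit of all 24 arrays with slide as a term, which treats the 3 miRNA arrays with a shared control as independent. For the miRNA class 23 members rose, where 4.45% of all probes rose. BST2 rose by 2.24 ± 0.41 (SE, n = 12 arrays, adjusted p = 0.00195), HERC5 by 2.08 ± 0.39 (adjusted p = 0.00239), RSAD2 by 2.59 ± 0.51 (adjusted p = 0.0034), CMPK2 by 2.57 ± 0.53 (adjusted p = 0.00452) and HERC6 by 1.29 ± 0.28 (adjusted p = 0.00602). This class result rested on miR-145, since 1 member rose without its 3 arrays, and 7 rose without the slide term. For the siRNA class 0 members passed and 0 had an unadjusted p below 0.05 (1.05% of all probes passed). For the compounds 0 passed, against 2.59% of all probes, and 14 had an unadjusted p below 0.05. Without the miR-145 arrays 7 fell. No share of all probes is given for these 14 and 7, so they cannot be set against the background. For CXCL10 0 passed and 0 had an unadjusted p below 0.05 (0.166%). Compounds minus small RNA transfections gave 1 lower member, BST2 at -3.76 ± 0.83 (SE, adjusted p = 0.0281), where 0.53% of all probes were lower. There were 0 without either genistein array or without the slide term, but 7 without the miR-145 arrays (share of all probes not given). No compound array was on slide 3 and all miR-145 arrays were on slide 1, so slide and agent are partly mixed in these estimates. The same fit put BST2 at 1.75 for CXCL10, while no member was above 0.69 on a CXCL10 array.

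The basal level of the members was read from the control channel, as log2 of the processed Cy3 signal after quantile normalisation. Over 22 control extracts with slide as a term, 27 of 49 members differed between the 7 lines (limma moderated F test). As 55.3% of all probes did so, this share is near the background. The line levels given next are estimates of that fit at the mean of the slides, and they can lie outside the observed controls. The SAS controls of IFITM1, for example, read 11.44 to 12.81, and the LNCap control of IFI16 read 2.49. IFI16 had the widest range between these levels, from 2.05 in LNCap to 10.80 in SAS (adjusted p = 2.04e-06). It was at 5.79 in DU145, 7.90 in PC3, 8.91 in 786O, 9.79 in FaDu and 9.91 in A498. BST2 ranged from 4.12 in DU145 to 12.03 in 786O (adjusted p = 0.00104), and IFITM1 from 6.12 in 786O to 13.79 in SAS (adjusted p = 0.0034). TRIM22 ranged from 1.61 in DU145, where no control was well above background, to 8.50 in A498 (adjusted p = 0.000613). PLSCR1 was at 3.78 in LNCap and between 8.92 and 10.66 in the other 6 lines (adjusted p = 7.81e-05). LNCap had 1 control sample, on slide 1, and the SAS controls were all on slide 2. In the order of IFI16, A498 and FaDu stood closer than the residual SD of 0.62, and the other neighbors differed by more.

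**Figure D5:**
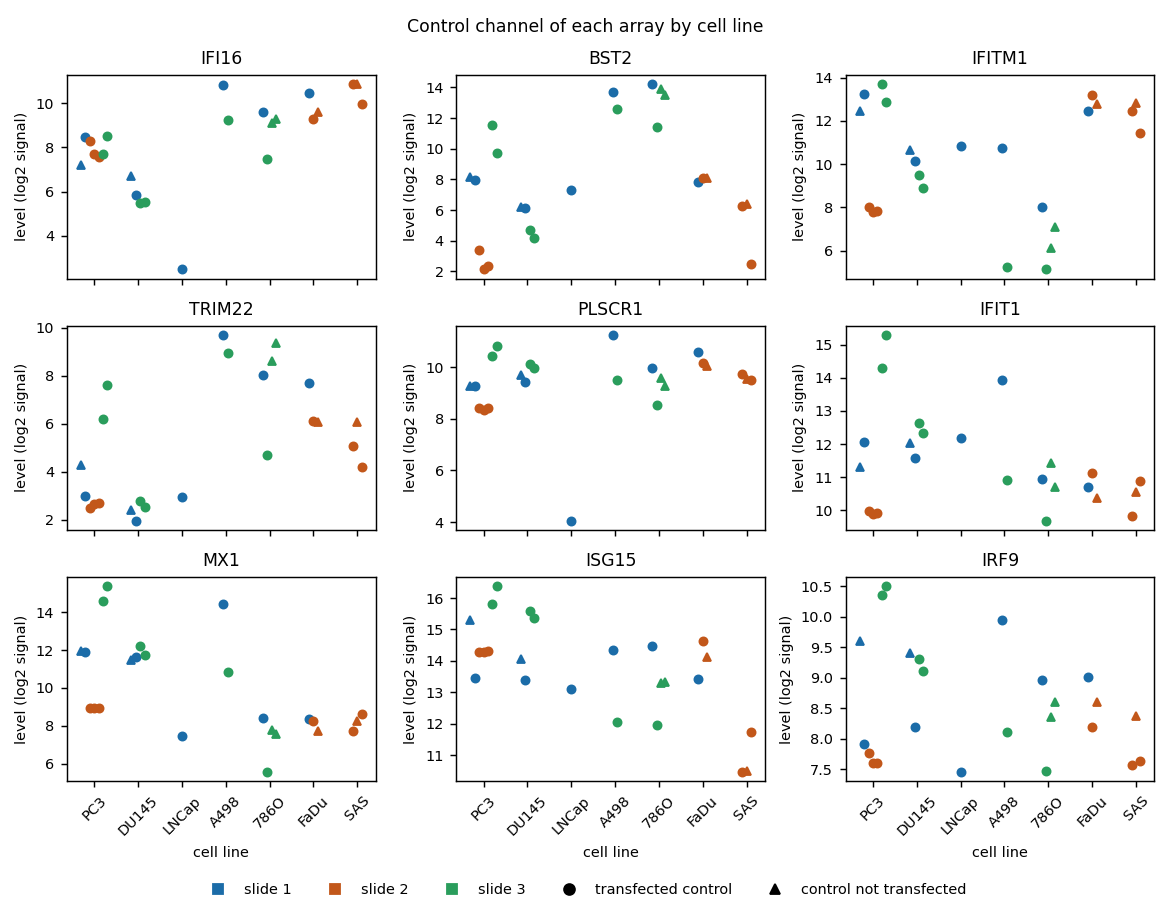
Level (log2 of the quantile-normalised Cy3 signal) of 9 members in the control channel of each array, by cell line, coloured by slide, with circles for controls transfected with a control RNA and triangles for controls that were not. PC3 controls of slide 3 lie above those of slide 2 for IFIT1 and MX1, and LNCap is lowest for IFI16 and PLSCR1.

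Controls of 1 line differed between slides. In PC3 the controls of slide 3 lay above those of slide 1 by a median of 1.68 over the members (38 of 49 by more than 1) and above that of slide 2 by 3.61 (44 of 49), while that of slide 2 lay below those of slide 1 by 1.03 (25 of 49). Over all genes the median differences were -0.04, -0.01 and -0.02, with 9.48% and 13.7% above 1 in the first 2 and 6.27% below -1 in the last. The A498 control of slide 3 lay below that of slide 1 by 1.90 (45 of 49 by more than 1, against 7.61% of all genes), and the 786O controls of slide 3 below that of slide 1 by 0.87 (21 of 49, against 5.37%). The DU145 and FaDu slides differed by medians of 0.40 and 0.11. IFIT1 read 36853.7 and 16380.2 units in the PC3 controls of si-GOLM1 and miR-143 on slide 3, against 3231.7 and 5247.5 in those of genistein and miR-145 on slide 1. Experiment, control RNA and slide cannot be told apart here. The control of si-GOLM1 in PC3, the array on which 6 members were lower, had the highest member median of the PC3 controls, 11.33 against 7.61 to 10.69, and the part of this level in those ratios was not tested.

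Since both channels of a transfection array held transfected cells, the response to transfection itself was looked for between control channels. In 5 pairs of line and slide, controls that had received a control RNA were compared with controls that had not. In this fit 0 of 49 members were higher and 1 lower, IRF9, at -1 ± 0.15 (SE, limma adjusted p = 0.0424), where 0.233% of all probes were lower. IRF9 was lower in each of the 5 pairs, by -1.70 in PC3, -1.22 in DU145, -0.41 in FaDu, -0.77 in SAS and -1 in 786O. In all, 13 members had an unadjusted p below 0.05, and 12 of these were lower and 1 higher (HERC6 at 0.58 ± 0.20, adjusted p = 0.142). The share of all probes at that unadjusted p is not given. The call of IRF9 was lost without 5 of the 6 controls that were not transfected, taken out 1 at a time. Without the wogonin control of FaDu 7 members were lower, a count that also lacks a share of all probes. The controls that were not transfected came from other experiments than the transfected ones of their line, so treatment and experiment cannot be told apart.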

How the data were processed

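RNA of treated (Cy5) and control (Cy3) cultures was read on 24 Agilent 2-colour arrays on 3 slides, slides 1 and 2 of 1 probe design and slide 3 of another. Per the file headers, Agilent Feature Extraction 10.7.3.1 subtracted the background, corrected the dyes linearly and by lowess, and wrote the processed signals as intensity values for each spot. The deposited log10 ratio of red over green and its error come from the same software, and the table of the authors' processed values, in log10, equals these ratios on every array. The flags for spots above background, saturated or outlying are a score of 0 or 1 per spot, written by that software and deposited with the signals. Log10 ratios were turned to log2, control spots (4259 of 62976) and outlying spots were left out, spots of a probe were averaged, and the probe brightest over all arrays stood for a gene. Some ratios with both channels at background are listed as 0.

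The members and gene lists were chosen with earlier results of these data known. Named are the 12 members of widest range among the 34 measured on all arrays, the 3 farthest on each array with 10 or more members past the limit in 1 direction, the first of each role, the 5 with the largest spread of control levels, and up to 5 called in each fit. Others were named after their values were seen, to complete a role or a count.

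Tests used limma 3.58.1 in R 4.3.3 with Benjamini-Hochberg adjustment over 35649 probes shared by both designs, on log2 values. They were a fit of class plus slide, an F test between lines of the control channel after quantile normalisation with slide as a term, a fit of transfected against other controls within line and slide, and, chosen after the data were seen, a fit with 1 coefficient per agent. Arrays of 1 control extract were averaged in the control fits. Fits were tested on simulated data. Python 3.11.15 with numpy 2.4.6 and pandas 2.3.3 made the counts. A bound ("at least") is the treated or control signal over the higher of the dim channel's signal and the lowest signal that is well above background in that channel of the array. With several spots, a probe passed when the share of passing spots was 0.5 or more. Alternatives were another background correction, median centring, subtraction of a probe's mean over other agents, other filters, probes, limits and scalings, and leaving out arrays. Ratios without a dye swap keep any dye bias of a probe. The number of arrays limits the precision. Some other genes of the lists are not reported here.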

Additional observations from a re-analysis of the deposited data

Results flagged for a closer look

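TRIM22, a ubiquitin ligase, moved in opposite directions with si-LAMB3 in the 2 squamous lines. Its log2 ratio was 1.82 in FaDu and -1.19 in SAS, 1 array each, and the difference was not tested.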

How the results depend on the processing

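The counts for miR-145 kept within 1.5 times under every alternative, and 47 to 48 members rose when 1 of its lines was left out. Of 329 member values past the limit, 245 were past it in the same direction with normexp background correction, 262 without background correction, 329 with median centring, 315 with the median over probes and 244 after subtraction of the probe's mean over other agents. That mean includes the miR-145 arrays by construction, and 19 values changed sign under it and 0 under the other 4. With normexp, miRNA arrays gave 12 lower values in place of 22, siRNA arrays 32 higher in place of 49, compound arrays 0 higher and 32 lower in place of 5 and 49, miR-375 14 higher, si-LAMB3 in SAS 7 higher, miR-29a 9 higher and wogonin in SAS 8 lower. Without background correction these were 14 lower for miRNA, 0 higher for compounds, 9 higher for si-LAMB3 in SAS, 9 higher for miR-29a and 9 lower for wogonin in SAS. After the mean was subtracted, miRNA arrays gave 73 lower values, siRNA arrays 15 higher and 60 lower, compounds 0 higher and 135 lower, genistein in PC3 34 lower, wogonin 34 lower in SAS and 34 in FaDu, miR-375 9 higher, si-LAMB3 10 higher in FaDu and 5 in SAS, and miR-29a 3 higher. With a limit of 0.5, miRNA gave 52 lower, siRNA 37 lower, compounds 12 higher and 92 lower, CXCL10 1 higher and 2 lower, genistein in PC3 23 lower, wogonin 28 lower in SAS and 23 in FaDu, and miR-29a 25 higher.

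In the class fit, 7 members rose for miRNA without the slide term and 1 without the miR-145 arrays, and 21 to 22 when 1 compound array was left out. The compound minus small RNA contrast gave 0 lower without the slide term, 7 without the miR-145 arrays and 0 to 2 with 1 compound array left out, and compounds alone 7 and 0 to 2. In the agent fit si-LAMB3 had 12 members rising with normexp, 6 to 14 rising and 0 to 5 falling with 1 line left out, genistein 0 rising with normexp, 0 to 1 rising and 4 to 6 falling, and wogonin 2 to 3 falling. Between transfected and other controls, 0 members were lower with scaling to the 75th percentile, 2 with normexp, 5 without averaging of extracts and 0 to 7 with 1 control left out. The cause of these shifts was not tested. With 1 line left out, si-LAMB3, genistein or wogonin keeps 1 array, so those counts rest on the spread of other agents. No share of all genes or probes is given for the counts under other settings, so they cannot be set against the background. No paired analysis was possible because each condition has 1 array in a line (CXCL10 has 1 at each of 2 times) and all replicate numbers are 1. Ratios over a channel near background enter the counts, medians and fits as listed, and their size is limited by the background.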
